A study of Mus musculus with 10 samples.

Results

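The Hippo pathway core and its TEAD transcription factors were examined through 10 genes, Yap1, Wwtr1, Tead1, Tead3, Tead4, Stk3, Sav1, Lats1, Lats2 and Nf2. They were taken by symbol from a table of 18586 rows, and all 10 were present. The table came from bulk RNA-seq of tongue epithelium primary cultures of the mouse, with 6 EY libraries and 4 N libraries. Both genotypes carried the Krt14-CreERT driver, the LSL-rtTA transactivator and the tetON_H2B-GFP reporter, and N cells carried nothing else. EY cells had in addition tetON_E6-E7, the oncogenes of human papillomavirus, and tetON_YAP1S127A, a YAP1 allele with the protein change S127A. Per the study's methods, the mice were adult littermates, and tamoxifen given into the tongue activated the Krt14-driven recombinase in basal epithelial cells. Doxycycline then switched on the tetON alleles. Epithelial cells, isolated at day 15 of induction per the labels, were cultured in medium with doxycycline to keep the transgenes active. Fluorescent cells were sorted from the cultures, returned to culture and expanded. Of the EY cultures, the lines EY3960, EY4028 and EY4174 gave 2 libraries each, named here sample 1 and sample 2, and N was the line N4172 with samples 1 to 4. Genotype and line therefore cannot be told apart, and p-values measure the spread between libraries, some of which share a line.

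The Hippo pathway is a kinase cascade that restrains growth. The kinase STK3, also called MST2, acts with its scaffold SAV1 on the kinases LATS1 and LATS2, which NF2, or merlin, brings to the membrane. LATS kinases phosphorylate YAP1 and its paralog TAZ, the product of Wwtr1, which then stay in the cytoplasm or are degraded. Unphosphorylated YAP1 and TAZ enter the nucleus and activate genes through the DNA-binding TEAD factors. In oral epithelium nuclear YAP1 is a feature of basal progenitor cells. The S127A change removes a LATS phosphorylation site, so that the comparison of EY with N asks how the transcripts of the pathway itself differ where 1 of its outputs is held active together with E6-E7.

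TEAD factors bind the letters GGAATG, read as CATTCC on the opposite strand, and this short motif was looked for around the start sites of the genes, to show where the pathway's own promoters hold it. RefSeq windows of the GRCm38.p6 build, from 250 bases before to 50 bases after a start site, were found for 7 of the 10 genes. The 7 genes were Yap1, Wwtr1, Tead3, Sav1, Lats1, Lats2 and Nf2. For Lats1 and Nf2, unlike the others, the first transcribed bases of the windows did not occur in an annotated transcript of the gene. At least 1 window of Yap1, Wwtr1, Tead3, Sav1 and Lats2 held the motif on 1 of the strands, and no window of Lats1 or Nf2 did. Of 27025 genes with a window, 4481 (16.6%) held it, and of the single windows 14.7%. The stretches below are printed on the strand of the gene, with each match in capitals.
Yap1 (chr9:8004692-8004777, minus strand): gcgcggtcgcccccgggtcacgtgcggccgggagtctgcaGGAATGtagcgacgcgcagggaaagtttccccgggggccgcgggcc
Wwtr1 (chr3:57576001-57576086, minus strand): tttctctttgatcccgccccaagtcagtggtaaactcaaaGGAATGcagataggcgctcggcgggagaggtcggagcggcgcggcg
Tead3 (chr17:28350942-28351027, minus strand): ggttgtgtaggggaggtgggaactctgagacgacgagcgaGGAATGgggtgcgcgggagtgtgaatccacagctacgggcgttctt
Tead3 (chr17:28350678-28350763, minus strand): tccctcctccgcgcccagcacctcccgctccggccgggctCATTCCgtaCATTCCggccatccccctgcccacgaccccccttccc
Sav1 (chr12:69987063-69987148, minus strand): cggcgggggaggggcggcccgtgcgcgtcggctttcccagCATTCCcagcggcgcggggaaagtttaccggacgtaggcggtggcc
Lats2 (chr14:57746102-57746131, minus strand): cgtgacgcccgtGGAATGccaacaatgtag
The match of Yap1 began 141 bases before the start site and that of Sav1 106 bases before it. Wwtr1 had 2 windows that overlap, with 1 shared match. One window of Tead3 held a match 182 bases before its start, and a second window held 2 matches close together and another just inside the transcript, which is not printed. The match of Lats2 began at transcribed base 5. A match describes letters only, and neither binding nor the start site used in these cells was measured here.

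All values are TPM, transcript abundances that the authors had scaled by transcript length and to a common library total, so that levels of different genes in a library can be set side by side, and read depth is unknown. Of the table, the 11630 genes that reached 1 TPM in 4 or more libraries were tested with limma on log2(TPM + 1), and all 10 Hippo and TEAD genes were among them. Differences are given on that log2 scale, which understates those of genes with few TPM. A gene was called at an adjusted p under 0.01 and a difference over 1, the thresholds of the study. The cultures expressed all 9 listed markers of basal oral epithelium, with summed levels of 4264 to 7226 TPM in EY and 5277 to 6001 TPM in N. Krt5 and Krt14 made up most of this sum, and single markers separated the groups. Krt15 had 8.70 to 35.3 TPM in EY and 64.3 to 97.9 in N, Trp63 46.0 to 60.5 and 70.8 to 99.9, and Epcam 53.1 to 63.3 and 29.3 to 38.3, and their part in the results was not tested. The table held 2 of 8 fibroblast, 3 of 5 endothelial, 2 of 6 skeletal muscle, 4 of 5 melanocyte and 4 of 8 immune markers. Summed markers of fibroblasts, endothelium and skeletal muscle stayed under 1 TPM in every library, and those of melanocytes between 0.458 and 1.23 TPM in EY and 1.29 and 3.44 TPM in N. Of the immune list only Cd68 was above 1 TPM, and the common leukocyte gene Ptprc reached 0.347 TPM at most. In bulk RNA, fewer cells of a type and less RNA per cell cannot be told apart. In EY3960 sample 1 and EY4174 sample 2, long transcripts were low. Between the 2 samples of EY3960, the median difference of sample 2 from sample 1 went from -0.02 in the shortest of 4 equal classes of transcript length to 0.20 in the longest. For EY4174 it went from 0.09 to -0.23, and for EY4028 it stayed between -0.0139 and 0.00102.

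Yap1 was the only one of the 10 genes called between EY and N, where 3.55% of all tested genes were called. It rose from a mean of 18.7 ± 1.79 TPM (SD, n = 4) to 44.1 ± 9.54 TPM (SD, n = 6), 2.36-fold. Tead4 had a difference of 0.93 and Lats2 of 0.54, both higher in EY with an adjusted p under 0.01 but without passing the threshold on size. With the line as a random block, which uses an estimated correlation between libraries of a line, the adjusted p was 0.0162 for Tead4 and 0.171 for Lats2, and Yap1 alone of the 10 genes, at 0.00404, stayed under 0.01. Without the block, an adjusted p under 0.01 was reached by 3 of the 10 genes, all higher in EY, against 11.8% of all genes (6.84% higher), and an unadjusted p under 0.05 by 6 of them, against 37.5%. Over the 10 genes, 5 differences were above 0 and 5 below, with a median of 0.08, and the 11630 tested genes had a median of 0.03. No overlap of the groups, with EY above N, was seen for Yap1, Tead4 and Lats2, 3 of 10, which held for 11.3% of all genes. The reverse, with EY below N, was seen for Nf2 and Sav1, 2 of 10, against 9.10% of all genes. Leaving out both libraries with low long transcripts, an alternative added after the data were seen, left 8 libraries and called 2 of the 10 genes, Yap1 and Tead4.

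**Figure D1:**
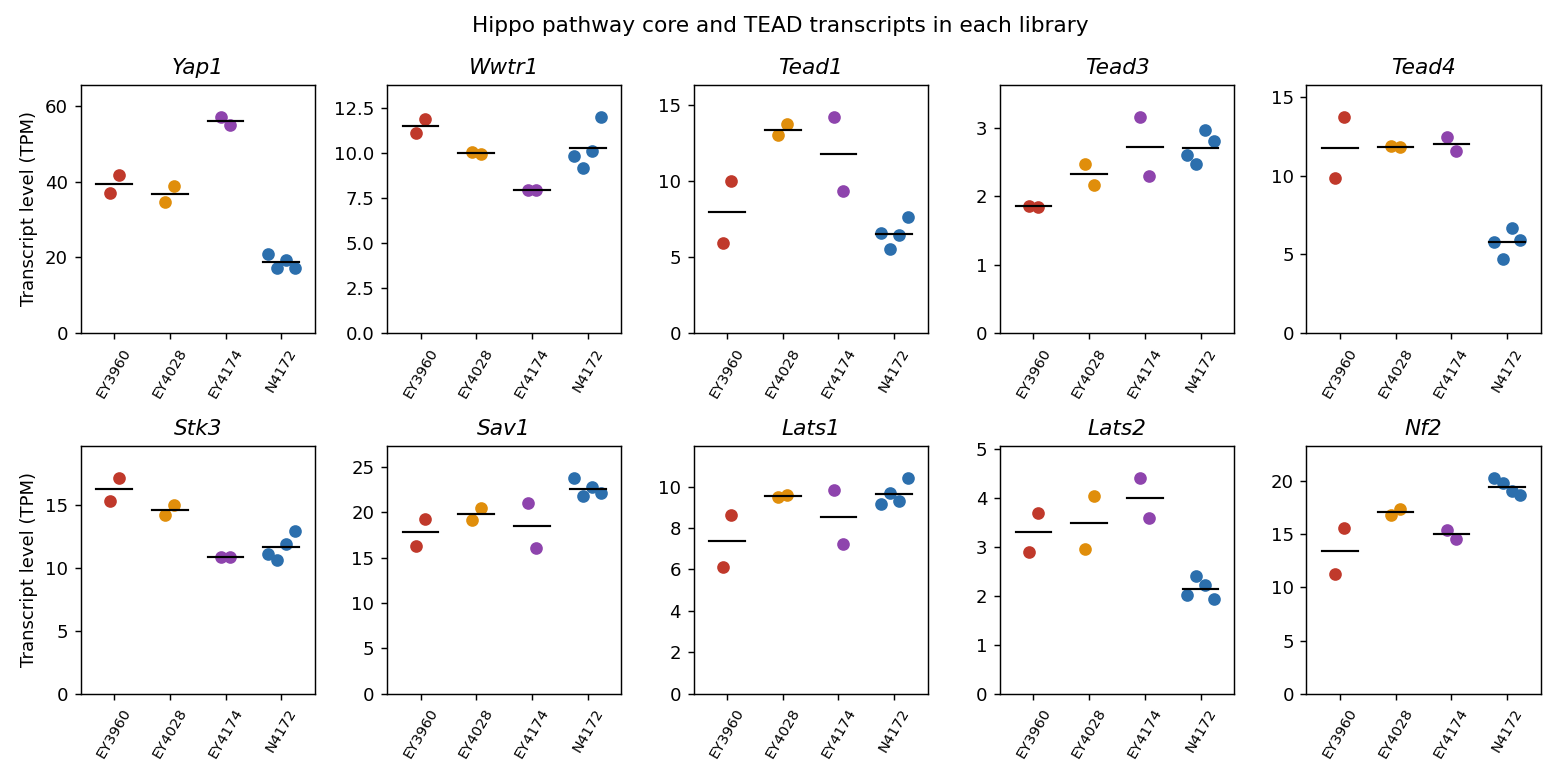
Transcript level in TPM of each of the 10 genes (vertical axis, from 0) in each library, by culture line (horizontal axis). Points are libraries and bars the line means. The EY points of Yap1, Tead4 and Lats2 lie above all 4 N points, and those of Nf2 and Sav1 lie below them.

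The coactivators were considered first, the mouse gene Yap1 and its paralog Wwtr1. The induced YAP1S127A is a separate transgene, for which the paper lists human YAP1 primers as transgene specific. Yap1 was at 37.1 and 41.8 TPM in EY3960, 34.7 and 39.03 TPM in EY4028, and 57.1 and 54.9 TPM in EY4174. The N libraries had 20.9, 17.3, 19.3 and 17.2 TPM. EY4174 was the line with the most Yap1, and none of the EY libraries came near the N range. Against N the difference was 1.04 ± 0.10 (SE) in EY3960, 0.94 ± 0.10 in EY4028 and 1.54 ± 0.10 in EY4174, each with a limma adjusted p of 8.75e-05 or less. EY4028 therefore missed the threshold on size. The EY lines differed from one another by up to 0.59, with an adjusted p of 0.0119 in limma's F test, just above the threshold. Without EY4174 the difference of EY from N was 0.99, and in a fit of the line means, 3 against 1, its adjusted p was 0.209, the highest of the 25 alternatives. Whether the Yap1 values include reads of the transgene was not tested.

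Wwtr1, which encodes TAZ, had 11.1 and 11.9 TPM in EY3960, 10.1 and 9.96 TPM in EY4028, and 7.98 and 7.96 TPM in EY4174. The N libraries had 9.83, 9.20, 10.1 and 11.996 TPM. The groups overlapped, with EY3960 at the upper end and EY4174 below every N library. The difference of EY from N was -0.07, with a 95% interval from -0.34 to 0.21 (limma adjusted p 0.743), and it changed sign in 3 of 25 alternatives, among them those without N4172 sample 4 and without EY4174. Among the lines EY4174 had the most Yap1 and the least Wwtr1, although the F test of Wwtr1 gave an adjusted p of 0.0647.

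As a share of the summed TPM of both coactivators, Yap1 made up 58.9% to 68.1% in the N libraries and 76.9% to 87.7% in the EY libraries. The ranges did not overlap. The sum itself was 29.0 ± 1.78 TPM in N (SD, n = 4) and 53.9 ± 8.32 TPM in EY (SD, n = 6), and Wwtr1 contributed 10.3 ± 1.204 and 9.84 ± 1.62 TPM to it. The larger sum of EY was thus carried by the Yap1 values, which may or may not count transgene reads.

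The TEAD factors give the coactivators their contact with DNA. Tead4 was at 9.88 and 13.7 TPM in EY3960, 11.9 and 11.8 TPM in EY4028, and 12.5 and 11.6 TPM in EY4174. It was at 5.76, 4.74, 6.66 and 5.90 TPM in N. Every EY library exceeded every N library, and the means of 11.9 ± 1.25 and 5.76 ± 0.789 TPM differed 2.06-fold. The log2 difference was 0.93 ± 0.11 (SE), with a 95% interval from 0.69 to 1.18 and a limma adjusted p of 1.42e-04. The adjusted p was 0.0162 with the line as a random block and 0.191 in the fit of line means. By line the differences were 0.91, 0.93 and 0.95, with adjusted p of 0.00103, 0.00105 and 0.00103. The EY line means spanned 0.04 (adjusted p 0.981 in the F test), but the 2 samples of EY3960 lay apart on either side of the other lines. With single libraries left out the span ran from 0.0282 to 0.261, and the difference of EY3960 from 0.69 to 1.13. With a pseudocount of 0.1 TPM in place of 1, the difference was 1.04 and Tead4 was called.

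Tead1 varied far more between libraries. It had 5.88 and 9.98 TPM in EY3960, 12.97 and 13.7 TPM in EY4028, and 14.2 and 9.32 TPM in EY4174, against 6.56, 5.52, 6.45 and 7.61 TPM in N. Of the EY libraries only EY3960 sample 1 fell within the N range. The difference was 0.63, with a 95% interval from 0.18 to 1.07 and a limma adjusted p of 0.0419. By line it was 0.21 for EY3960 (adjusted p 0.48), 0.94 for EY4028 (0.00638) and 0.74 for EY4174 (0.0214). Tead1 has the longest annotated coding transcript of the 10 genes, 9964 bases. In EY3960 and in EY4174 the lower Tead1 value was that of the sample with low long transcripts. Whether transcript length had a part in this was not tested. Without those 2 libraries the difference of EY from N was 0.86 (adjusted p 0.00202), and with the trend of values with transcript length removed from each library it was 0.64 (0.0134), near the value with all libraries. These 2 alternatives were added after the data were seen, and over the 25 alternatives the adjusted p of Tead1 ran from 0.00202 to 0.57.

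Tead3 was low throughout. It was at 1.86 and 1.84 TPM in EY3960, 2.47 and 2.17 TPM in EY4028, 3.16 and 2.30 TPM in EY4174, and 2.60, 2.48, 2.96 and 2.80 TPM in N. EY3960 was the lowest line, and EY4174 sample 1 was above every N library. The difference of EY from N was -0.18, with a 95% interval from -0.46 to 0.10 (limma adjusted p 0.337).

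The makeup of the TEAD family differed accordingly. Tead2, the family's remaining gene, completed the sum although it is not one of the 10. Tead4 took 30.3% to 35.4% of summed TEAD transcripts in N and 40.1% to 52.3% in EY. Tead1 took 36.6% ± 1.97 in N (SD, n = 4) and 41.1% ± 6.17 in EY (SD, n = 6), with overlapping ranges. Tead3 took 14.3% to 16.5% in N and 7.03% to 10.4% in EY. Tead2 held 14.5% to 17.8% in N and 1.10% to 7.81% in EY, and its log2 difference was -0.96 (limma adjusted p 0.0152). Its level was low, at 2.85 ± 0.448 TPM in N and 1.09 ± 0.763 TPM in EY (SD). Tead1 and Tead4 together therefore made up more of the family in every EY library than in any N library. The summed TEAD level was 17.9 ± 1.98 TPM in N and 26.3 ± 4.39 TPM in EY, and EY3960 sample 1, at 19.0 TPM, lay within the N range.

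**Figure D2:**
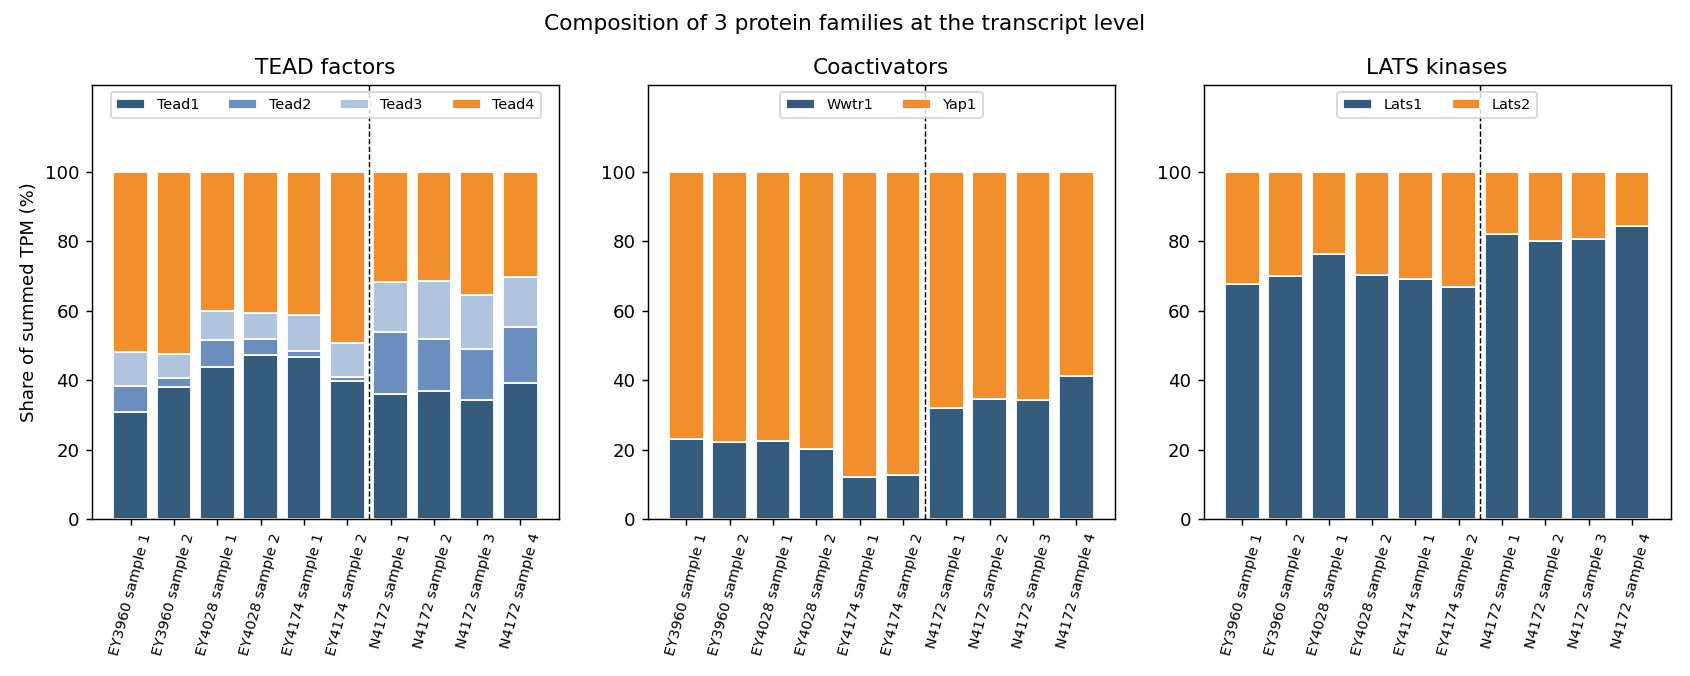
Share of summed TPM in percent (vertical axis) of the genes of the TEAD, coactivator and LATS families in each library (horizontal axis), with EY left and N right of the dashed line. Tead4, Yap1 and Lats2, in orange, take larger shares in every EY library than in any N library.

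The LATS kinases inhibit YAP1 and TAZ directly, and Lats2 is itself a known target of YAP1. Lats2 had 2.90 and 3.70 TPM in EY3960, 2.95 and 4.03 TPM in EY4028, and 4.41 and 3.59 TPM in EY4174, against 2.02, 2.40, 2.22 and 1.94 TPM in N. Every EY library was above every N library, with means of 3.595 ± 0.594 and 2.14 ± 0.209 TPM, a ratio of 1.68. The log2 difference was 0.54, with a 95% interval from 0.27 to 0.81 and a limma adjusted p of 0.00866. It lay above 0 in all 25 alternatives, but the adjusted p was under 0.01 in only 9 of them and reached 0.518 in the fit of line means and 0.171 in the others. Line by line the difference was 0.45, 0.51 and 0.67 in EY3960, EY4028 and EY4174, with adjusted p of 0.0502, 0.0289 and 0.00844.

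Lats1 overlapped between the groups. It had 6.11 and 8.65 TPM in EY3960, 9.50 and 9.59 TPM in EY4028, and 9.83 and 7.23 TPM in EY4174, against 9.16, 9.68, 9.31 and 10.4 TPM in N. The low EY values were again those of EY3960 and of EY4174 sample 2. The difference was -0.18, with a 95% interval from -0.46 to 0.10 (limma adjusted p 0.336), and without both libraries with low long transcripts it was -0.03. Lats1 transcripts reach 7209 bases, and with the length trend removed the difference was -0.17. A part of transcript length in these values was not tested. Within the LATS pair the share of Lats2 was 15.7% to 19.8% in N and 23.7% to 33.2% in EY, without overlap. The sum of both kinases was 11.8 ± 0.529 TPM in N and 12.1 ± 1.91 TPM in EY, and the EY range of 9.004 to 14.2 TPM enclosed that of N.

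Upstream of LATS, Nf2 and Sav1 were lower in EY by small amounts. Nf2 had 11.2 and 15.6 TPM in EY3960, 16.8 and 17.3 TPM in EY4028, and 15.4 and 14.5 TPM in EY4174, against 20.2, 19.8, 19.1 and 18.7 TPM in N. The highest EY value lay under the lowest N value. The difference was -0.35, with a 95% interval from -0.59 to -0.11, and its limma adjusted p of 0.0380 missed the threshold. Of the lines EY3960 had the largest difference, -0.52 (adjusted p 0.00804), which was -0.30 with its sample 2 alone.

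Sav1, the scaffold of STK3, had 16.3 and 19.2 TPM in EY3960, 19.1 and 20.4 TPM in EY4028, and 20.9 and 16.1 TPM in EY4174. The N libraries had 23.7, 21.8, 22.7 and 22.1 TPM. No EY library reached the N range, yet the gap between EY4174 sample 1 and the lowest N library was under 1 TPM. The difference was -0.27, with a 95% interval from -0.47 to -0.06 (limma adjusted p 0.0556). The longest Sav1 transcript, of 2524 bases, is the shortest of the 10. Both samples with low long transcripts held the lowest Sav1 values, and the cause was not tested. Without them the difference was -0.17 (adjusted p 0.109), and with the length trend removed it was -0.32 (0.0102), within a range of 0.0102 to 0.672 over the 25 alternatives.

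The levels of Stk3 were arranged by EY line. Stk3 had 15.3 and 17.1 TPM in EY3960, 14.2 and 14.96 TPM in EY4028, and 10.8 and 10.9 TPM in EY4174, against 11.1, 10.6, 11.9 and 12.95 TPM in N. EY3960 and EY4028 were above all N libraries, and EY4174 was at the lower end of N. The differences from N were 0.45 (limma adjusted p 0.00988), 0.30 (0.0551) and -0.09 (0.562) in that order, and the F test among the EY lines gave an adjusted p of 0.0264 for a largest difference of 0.54. Both samples of each line lay together, within 1.8 TPM.

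Set side by side, the lines shared the N libraries as reference, and no gene was called in all 3 of them. In EY3960 an adjusted p under 0.01 was reached by Yap1, Tead4 and Stk3 (higher) and Nf2 (lower), 4 of 10, against 17.0% of all genes, and Yap1 alone was called, against 7.04%. In EY4028 it was reached by Yap1, Tead1 and Tead4, 3 of 10, against 16.7%, and none was called, against 5.74%, although 5 had an unadjusted limma p under 0.05, as did 41.1% of all genes. In EY4174 it was reached by Yap1, Tead4 and Lats2, 3 of 10, against 15.6%, and Yap1 alone was called, against 4.95%. Of the 10 genes, Yap1 and Tead4 passed in each line, and the share of all genes that did so was not computed. Over 20 alternatives in each line, Yap1 passed in all and Tead4 in 17 to 19. Nf2 passed in 8 and Stk3 in 5 of those for EY3960, Tead1 in 12 for EY4028 and Lats2 in 7 for EY4174. Among the EY lines none of the 10 genes passed the F test at 0.01, which 8.55% of all genes did, and none was called, against 5.12%. An unadjusted p under 0.05 in limma's F test was found for 4 of the 10 genes, against 34.8% of all genes, Yap1 (0.00109), Stk3 (0.00351), Wwtr1 (0.0143) and Tead1 (0.0299).

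**Figure D3:**
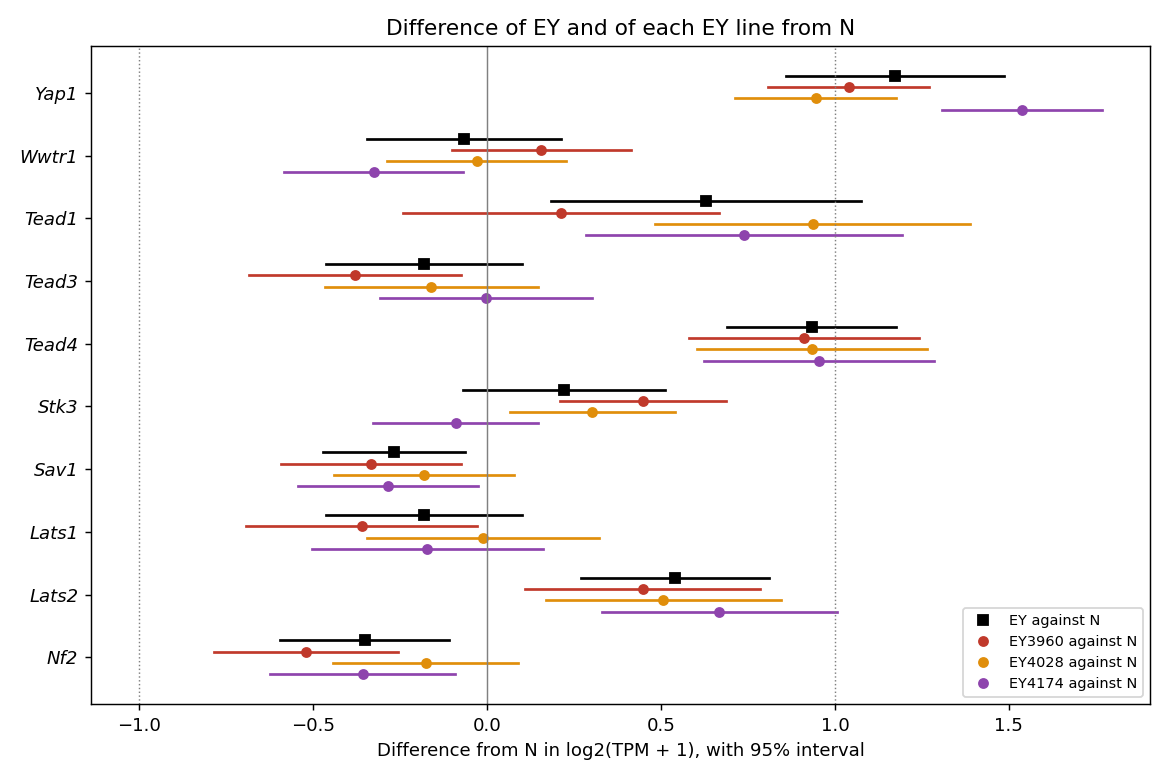
Difference from N in log2(TPM + 1) (horizontal axis) of each of the 10 genes (vertical axis), for all EY libraries (black squares) and for each EY line (circles), with 95% intervals from limma and dotted lines at the threshold of 1. Tead4 has differences of 0.91 to 0.95 in the 3 lines, where that of EY3960 averages 2 samples that lay apart, and the lines of Tead1 and Stk3 spread more widely.

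The order of levels within a library also differed between the groups. In N, Sav1 was the most abundant of the 10 with 22.6 ± 0.871 TPM, followed by Nf2 with 19.4 ± 0.707 and Yap1 with 18.7 ± 1.79 TPM (SD, n = 4), and the latter 2 exchanged places between libraries. In EY, Yap1 was the most abundant in each of 6 libraries. Tead3 and Lats2 were the scarcest genes in both groups. Of the 45 pairs among the 10 genes, 3 had one order in every N library and the opposite order in every EY library. Yap1 was below Sav1 in N and above it in EY, Tead4 was below Lats1 in N and above it in EY, and Lats2 was below Tead3 in N and above it in EY. Among all pairs of the 6752 tested genes with means in the same range of levels, 2.39% were reversed in this way.

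The ratio of coactivator to LATS transcripts joins these differences. It was 2.20 to 2.75 in the N libraries and 3.59 to 5.81 in the EY libraries. The ratio of coactivator to TEAD transcripts was 1.499 to 1.77 in N and 1.51 to 2.68 in EY, and both EY4028 samples, at 1.51 and 1.68, were inside the N range. By these values, coactivator transcript per LATS transcript was higher in every EY library than in any N library, but not always per TEAD transcript. Both ratios rest on the Yap1 and Wwtr1 values. Whether transgene transcripts are counted in them was not tested.

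Other genes of the pathway were taken from lists by role, of which 76 genes were in the table and 70 were tested. Of these, 2 were called, both higher in EY, and 8 were higher and 1 lower at an adjusted p under 0.01. These shares, 2.86% and 12.9%, were near those of all tested genes, 3.55% and 11.8%. The called genes were Amotl2, a junction protein that holds YAP1 and TAZ at the membrane and is itself a YAP1 target, and Vgll3, a cofactor that binds TEAD. Amotl2 was at 22.2 ± 4.67 TPM in EY and 7.43 ± 0.738 TPM in N, a difference of 1.44 ± 0.15 (SE, limma adjusted p 4.66e-05). Vgll3 was at 11.5 ± 2.45 and 5.04 ± 0.694 TPM, a difference of 1.04 ± 0.15 (adjusted p 5.67e-04). Its call was lost with the line as a random block (adjusted p 0.0171) and with a block by sample number (0.0136). The difference fell under the threshold without either EY4028 sample or N4172 sample 1, at 0.96 to 0.98, and without line EY4028, at 0.88. Amotl2 was called higher in each of the 3 EY lines, as were 1.01% of all genes.

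The scaffolds that activate LATS or hold YAP1 were the list that stood highest. The 10 tested genes had values above 0, as did 54.0% of all genes. Their median was 0.55, against 0.03 over all genes. In the fit without a block, 4 had an adjusted p under 0.01, where 11.8% of all genes did. Amot, the 11th scaffold, named after its values were seen, did not reach 1 TPM in 4 libraries and was lower in EY, at a mean of 0.213 TPM against 1.18 TPM in N. In 4 of the 25 alternatives, each leaving out a library or a line, 1 of the 10 tested genes fell below 0. Besides Amotl2, the 4 scaffold genes with an adjusted p under 0.01 included Tjp1 and Ctnna1, named after their values were seen. Their differences were 0.53 and 0.63. Tjp1 encodes a tight junction protein and Ctnna1 encodes alpha-catenin. Of 12 polarity and cadherin genes upstream, 3 passed (25.0%, against the same 11.8%), Llgl2 with 0.96, Crb3 with 0.80 and Scrib with 0.48, also named after their values were seen. These 3 are apical and basolateral polarity genes of epithelia.

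No gene of the further kinase lists passed in the pooled comparison. In EY against N, none of 5 genes at the level of STK3, MOB1 and the NDR kinases had a limma adjusted p under 0.01. None of 9 TAO and MAP4K kinases had one either, against 11.8% of all genes. An unadjusted limma p under 0.05 was found for 3 and 1 of them, against 37.5% of all genes. In single lines against N, Stk4 and Map4k1 passed in EY3960 (limma adjusted p 8.51e-05 and 2.24e-04), as did 17.0% of all genes. Mob1a, Stk38l and Map4k5 passed in EY4174 (0.00219, 0.00141 and 0.00679), as did 15.6% of all genes. All of these are named after their values were seen. Stk4, the paralog of Stk3, was at 26.1 ± 6.05 TPM in EY and 18.6 ± 0.442 TPM in N (adjusted p 0.0448), and Mob1a, a LATS coactivator, at 87.8 ± 9.80 and 108 ± 3.30 TPM (adjusted p 0.0254). In EY against N, none of 4 LIM proteins that inhibit LATS and none of 14 genes for YAP1 turnover and its 14-3-3 partners passed. Of these lists, 0 and 5 genes had an unadjusted limma p under 0.05, against 37.5% of all genes. By line against N, Limd1 passed in EY3960 (limma adjusted p 0.00417) and Nuak2 in EY4028 (0.0011). Of all genes, 17.0% passed in EY3960 and 16.7% in EY4028. Ywhab passed in EY3960 (3.08e-05) and in EY4028 (5.32e-04), and these genes are named after their values were seen. Of 13 STRIPAK and RASSF genes, 1 passed in EY against N (7.69%, against 11.8% of all genes). It was Slmap, also named after its values were seen. Slmap, a STRIPAK subunit that brings a phosphatase to MST kinases, was at 11.3 ± 1.25 TPM in EY and 18.7 ± 3.09 TPM in N. The difference was -0.67 (limma adjusted p 0.00241).

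**Figure D4:**
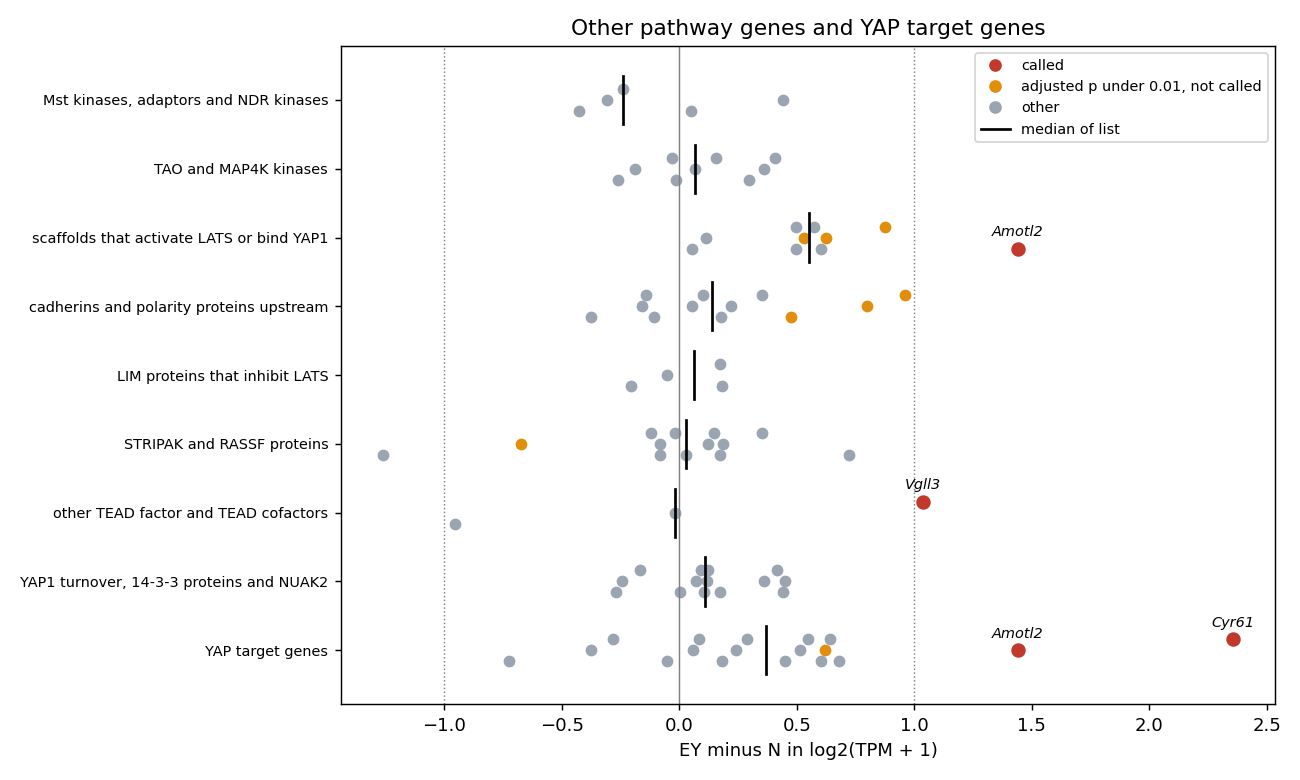
Difference of EY from N in log2(TPM + 1) (horizontal axis) for tested genes of each list (vertical axis), with black bars at list medians and dotted lines at the threshold of 1. Amotl2, Vgll3 and Cyr61 are the called genes, in red, and the 10 tested scaffold genes lie right of 0.

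Among 18 tested YAP target genes, which overlap these lists in part, 2 were called, Amotl2 and Cyr61, or 11.1% against 3.55% of all genes. Cyr61, a secreted matrix protein now named Ccn1, was at 71.7 ± 17.5 TPM in EY and 12.95 ± 1.31 TPM in N, a difference of 2.35 ± 0.16 (SE, limma adjusted p 1.90e-06), and it was called in each line. The list had 14 values above 0 and 4 below (77.8% above, against 54.0% of all genes), with a median of 0.37. All 3 called genes outside the 10 held the TEAD motif in their RefSeq windows (GRCm38.p6), in the orientation CATTCC. It began 103, 65 and 63 bases before the start sites of Cyr61, Amotl2 and Vgll3. For Cyr61 and Vgll3, the first transcribed bases of the window did not occur in an annotated transcript of the gene. The 3 genes are shown beside the stretches of Yap1 and Lats2 above because they were the genes with the clearest differences.
Cyr61 (chr3:145650043-145650128, minus strand): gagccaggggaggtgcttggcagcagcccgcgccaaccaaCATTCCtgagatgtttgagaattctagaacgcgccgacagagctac
Amotl2 (chr9:102717699-102717784, plus strand): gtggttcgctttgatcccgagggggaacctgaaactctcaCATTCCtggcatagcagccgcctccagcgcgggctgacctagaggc
Vgll3 (chr16:65815086-65815171, plus strand): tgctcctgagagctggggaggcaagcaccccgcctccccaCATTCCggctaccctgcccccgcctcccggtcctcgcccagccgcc
Genes with the motif differed in their values. Of the 5 Hippo and TEAD genes that held it, Yap1 and Lats2 were higher in EY at an adjusted p under 0.01, and Wwtr1, Tead3 and Sav1 were not. Over the table, 14% of 8591 tested genes with a window held the motif, against 23% of 139 genes called higher and 18.1% of 144 genes called lower.

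The profiles most like that of Yap1 across the 10 libraries, by the root mean square distance of centred log2(TPM + 1) values among genes with a mean of at least 5 TPM, were those of Mvk (0.19), Slc35f2 (0.20) and Wnt7b (0.20), against a median distance of 0.64. The nearest to Tead4 were Sptan1 (0.11), Srebf2 (0.12) and Rassf7 (0.13), against a median of 0.49. Mvk was at 40.1 TPM in EY and 19.0 TPM in N, and Srebf2 at 41.3 and 22.8 TPM.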

How the data were processed

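Bulk poly(A) RNA-seq of 6 EY and 4 N libraries was analysed from 1 table of TPM values, deposited by the authors for 18586 gene symbols. The submitters' processing notes name STAR 2.7.9, SAMtools 1.7, HTSeq 0.13.5, DESeq2 1.34.0 and the GRCm39 build. The paper's methods also describe transcript quantification for gene set analysis, and which route gave the TPM is not given in the sources used here. TPM carry no read depth, so count models and counting intervals were not used. Groups, lines and sample numbers came from the labels. limma (version 3.58.1, R 4.3.3) with trend and robust options was run on log2(TPM + 1), restricted to symbols that reached 1 TPM in 4 or more libraries, as EY against N and with 4 line means, with Benjamini-Hochberg adjustment over all genes tested. Every adjusted p is from limma. The code was tested on simulated data. No 2 columns were identical. Transcript lengths came from GENCODE M21. The genes, lists and tests were chosen with earlier results of these data known. Named genes were the 10 genes, every list gene called in EY against N or in all 3 lines, and the 3 nearest profiles of Yap1 and Tead4, with exceptions marked where they occur. Shares are descriptions without a test. Alternatives covered the pseudocount, filter, scaling, moderation, blocks and left-out libraries or lines. One gene of the pathway lists is counted but not reported by name here.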

Additional observations from a re-analysis of the deposited data

How the results depend on the processing

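Directions of Yap1, Tead4, Lats2, Tead1, Stk3, Nf2, Sav1, Lats1 and Tead3 in EY against N held in all 25 alternatives, and that of Wwtr1 in 22. Of the 10 genes, 1 was called between EY and N. The count was 2 with a pseudocount of 0.1 TPM and without both libraries with low long transcripts (chosen after seeing the data), and 0 with line means (3 lines against 1) and without line EY4174. Of all genes, 413 were called, against 216 with at least 1 TPM required in every library, 203 with the line as a random block and 2 with line means. A replicate block by sample number gave 221, and Yap1 (1.14, adjusted p 0.0137) and Vgll3 (1.14, 0.0136) lost their call while Tead4 (1.04, 0.00495) gained one. The line as a random block left Yap1 called and Vgll3 not (adjusted p 0.0171).

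EY3960 against N had 1 of the 10 genes called, and 2 with a pseudocount of 0.1, with the replicate block and without both libraries, but 0 with quantile normalization and without mitochondrial transcripts. Single libraries left out gave 0 to 2. EY4028 had 0, but 2 with a pseudocount of 0.1, 1 with the replicate block and 0 to 1 with single libraries left out. EY4174 had 1, but 2 with a pseudocount of 0.1, with the replicate block and without both libraries, and 1 to 2 with single libraries left out. Over all genes, at least 1 TPM in every library lowered the calls from 819 to 455 in EY3960, 668 to 371 in EY4028, 576 to 317 in EY4174 and 596 to 350 among the EY lines, where fewer genes were tested. Without both libraries, EY4174 had 379 and the EY lines 234, with fewer samples. The cause of the other changes was not tested.

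Values near 0 changed sign. Wwtr1 in EY against N was 0.0301 with the replicate block, 0.0634 without line EY4174, and from -0.12 to 0.00395 with single libraries left out. In EY4028 the replicate block gave 0.067 for Wwtr1 and 0.0174 for Lats1, and single libraries left out gave -0.0758 to 0.0408 and -0.0334 to 0.0225. Tead1 in EY3960 ran from -0.124 (without its sample 2) to 0.55. In EY4174, Tead3 was 0.0754 with quantile normalization, 0.0138 with median-of-ratios scaling, 0.0645 with the replicate block, 0.165 without both libraries, and -0.17 to 0.165 with single libraries left out. Lats1 there was 0.0266 without both libraries and -0.369 to 0.0266 with single libraries left out. The sample numbers share no stated source. Deviations of same-numbered samples of different lines correlated at -0.15 to 0.10, so no pairing by number was seen. With 2 samples per EY line, correlations of EY samples with the same and with different numbers are mirror images. A shared batch is therefore not excluded. TPM give no depth, which leaves the precision of low genes such as Tead3 and Lats2 to the spread between libraries.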

Other observations

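Of the RASSF genes, which link RAS proteins to MST kinases, Rassf6 and Rassf1 are named here after their values were seen. Rassf6 averaged 13.4 ± 0.768 TPM over the 4 N libraries and 5.64 ± 3.01 TPM over the 6 EY libraries (SD), a difference of -1.26 with a limma adjusted p of 0.0229, so that it was not called. By line the difference was -2.20 in EY3960, -0.91 in EY4028 and -0.67 in EY4174. Rassf1 was at 59.1 ± 17.3 TPM in EY and 34.3 ± 2.38 TPM in N, a difference of 0.72 (adjusted p 0.0139), with 1.21, 0.59 and 0.36 in the same order of lines. Both genes were farthest from N in EY3960, and limma's F test among the EY lines gave an adjusted p of 2.40e-04 for Rassf6 and 5.04e-04 for Rassf1, which were picked for this pattern. Among the TAO and MAP4K kinases, Map4k1, also picked after its values were seen, lay above N in EY3960 by 1.496 and below it in EY4174 by a difference of -0.73.

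The highest and the lowest library of each group were examined for the 10 Hippo and TEAD genes and for Amotl2, Vgll3 and Cyr61, in 26 sets of values, by the gap to the nearest library as a share of the range. None of the 26 sets passed Dixon's critical value, where chance passes about 1 in 20.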
